A study of Homo sapiens with 20 samples.

Results

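The comparison of MG132 with bortezomib set 2 proteasome inhibitors side by side after 3 h in the same cells. It was made between the 4 libraries labelled MG132 and the 4 labelled bortezomib, 8 of the 20 libraries in the series, and covered every gene and repeat subfamily in the deposited table. HCT-116 is an established human colorectal cancer line. Its cells were held in 2 mM thymidine for 16 h, which stalls DNA replication, and released for 7 h. They then received 20 µM MG132 or 100 nM bortezomib for 3 h. G2 cells (n = 4) had the same block and release and were collected without drug, at 0 h. A further group (n = 4) received the same MG132 dose together with α-amanitin at 50 µg/ml, a mushroom toxin that blocks RNA polymerase II. These last groups are given below as levels only, because they differ from the drug groups in time or share the inhibitor. The inhibitors were each used at 1 dose, and these doses differ, so a difference between the compounds and a difference between their doses cannot be told apart. Whether the replicates are separate cultures is not in the labels. The fit took the spread within groups from all 20 libraries of the series, not from the 8 compared. The p-values therefore reflect the spread among these 20 libraries alone, part of which may be technical. In bulk RNA, fewer cells that express a gene and less RNA of it per cell cannot be told apart.

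The proteasome degrades proteins that carry ubiquitin chains. When it is blocked, unfolded proteins accumulate, heat shock factor 1 is released from chaperones, and genes for cytosolic chaperones are transcribed. The transcription factors ATF4, NRF2 and p53, which are themselves degraded by proteasomes or made from mRNAs with regulated translation, can drive further stress programmes. MG132 is a peptide aldehyde that also inhibits calpains and cathepsins. Bortezomib is a dipeptide boronate, used in the clinic against multiple myeloma, that binds the chymotrypsin-like site of the proteasome.

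The libraries held 26797395 to 39710457 counts. Of 39918 genes and 1174 repeat subfamilies, 18959 genes and 1076 subfamilies had enough counts to be tested. MG132 replicates 2 and 4 stood apart from the other libraries: the slope of gene deviations on GC content, in log2 units per 10 percentage points, was -0.35 and 0.60 in them, against -0.16 to -0.06 in the other 6. Calls are given below also without them. Of the colon epithelium markers, KRT8 (1990 to 2850 CPM with MG132, 1760 to 2280 with bortezomib), KRT18 and EPCAM were abundant, while CDX1, VIL1 and LGALS4 were at or near 0. CPM are counts divided by the TMM-adjusted library size. The markers of fibroblasts summed to 5.77 to 12.3 CPM with MG132 and 5.84 to 10 with bortezomib. Those of leukocytes summed to 2.81 to 6.25 and 2.66 to 5.9 CPM with MG132 and with bortezomib, with NKG7 and CD3D at 0, and those of endothelium to 7.94 to 11.8 and 7 to 9.1 CPM, with CLDN5 at 0.

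Few genes were called between the inhibitors. By edgeR's quasi-likelihood test, 7 of 18959 genes were called at an adjusted p under 0.05, which is 0.0369% of those tested. All 7 were higher with MG132, and 0 genes were called lower. The unadjusted p was under 0.05 for 768 genes, 349 higher and 419 lower. DESeq2 called 19 genes, all higher with MG132. Limma-voom called 7, which included FGF21 and left out NR4A1, a gene called by edgeR. Among the 7 genes of the edgeR test were 4 that serve protein folding or the handling of damaged proteins: HSPA6, CRYAB, SERPINH1 and ZFAND2A. The immediate early genes DUSP1 and NR4A1 were also called. The log2 fold changes of MG132 over bortezomib were between 1.27 and 4.31. For each of the 7 the groups were separate, with all 4 MG132 libraries above all 4 bortezomib libraries, which held for 330 genes (1.74% of those tested), and the reverse held for 269 (1.42%).

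**Figure D1:**
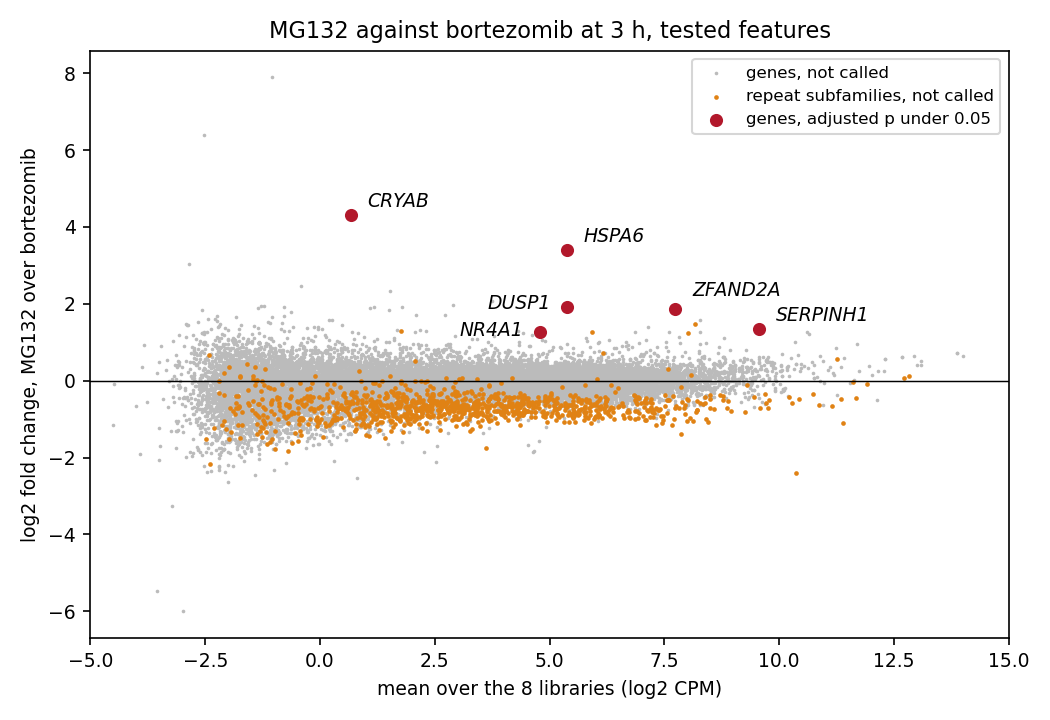
Each point is 1 tested gene (grey), repeat subfamily (orange) or called gene (red), placed by its mean over the 8 libraries (log2 CPM) and by its log2 fold change, MG132 over bortezomib. The 6 called genes shown all lie above 0, and most repeat subfamilies lie below it.

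The sequences upstream of the called genes are shown because several of these genes are known heat shock or cAMP-responsive genes. RefSeq promoters on GRCh38.p14, 250 bases before the transcript start, were matched by symbol for 5 of the 7 called genes. Heat shock factor binds inverted repeats of GAA, searched here as a pair (GAANNTTC or TTCNNGAA) and as a triple, in which 2 such pairs overlap in their middle element. Each pair reads the same on both strands, and triples were searched on both strands. A pair occurred upstream of HSPA6, SERPINH1 and ZFAND2A, and a triple upstream of HSPA6 and SERPINH1. A further window of SERPINH1 held neither. Of 35116 RefSeq promoter windows of this length, 11.6% held a pair and 0.441% a triple. DUSP1 held the palindrome TGACGTCA, the full cAMP response element, which 1.65% of windows held. No match was in the windows of NR4A1. CRYAB is named only. In the sequences that follow, capitals mark the matches. HSPA6 (chr1:161524290-161524539, plus strand) and DUSP1 (chr5:172771196-172771445, minus strand) are given over the whole window. SERPINH1 (chr11:75562169-75562198, plus strand) and ZFAND2A (chr7:1160349-1160378, minus strand) are given over the 30 bases around the match.
HSPA6: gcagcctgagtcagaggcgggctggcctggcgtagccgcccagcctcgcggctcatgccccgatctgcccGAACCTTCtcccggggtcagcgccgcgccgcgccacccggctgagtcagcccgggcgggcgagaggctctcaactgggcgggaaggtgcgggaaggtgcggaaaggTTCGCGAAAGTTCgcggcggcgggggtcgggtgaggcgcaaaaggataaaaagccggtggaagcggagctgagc
SERPINH1: ttccaactTTCCAGAAGTTTCtcgggacgg
ZFAND2A: cgaccggacacTTCGAGAAgggaagtggag
DUSP1: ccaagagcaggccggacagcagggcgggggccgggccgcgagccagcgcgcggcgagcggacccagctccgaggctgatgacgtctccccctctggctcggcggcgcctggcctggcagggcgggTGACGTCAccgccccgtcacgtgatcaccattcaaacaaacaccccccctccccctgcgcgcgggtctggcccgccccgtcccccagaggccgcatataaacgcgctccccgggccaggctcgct

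A match is a description of the letters and not of a bound site. HSPA8 held 4 pairs and 2 triples and was not called, and HSPA1A and HSPA1B held 1 pair each. HSP90AA1 held 3 pairs and 1 triple in 1 window, and DNAJB1 held 2 pairs in 1 window. Their other windows held none, and neither gene was called.

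HSPA6 (ENSG00000173110.8; hg38 chromosome 1, 161524540 to 161526910) encodes an HSP70 chaperone that is nearly silent without stress. It had 91.3, 47.0, 88.0 and 76.1 CPM in the MG132 libraries, replicates 1 to 4, against 11.0, 3.72, 9.32 and 4.74 CPM in the bortezomib libraries. Every MG132 library exceeded the highest bortezomib library by more than the whole range of the bortezomib group. MG132 over bortezomib gave a log2 fold change of 3.39 (SE 0.347, 95% interval 2.67 to 4.12; edgeR adjusted p = 9.66e-05), which is 10.5-fold. G2 cells had 0.0367 to 0.182 CPM, from 1 to 7 counts a library, so HSPA6 stood far above G2 cells with either inhibitor. With MG132 and α-amanitin together it was at 0.945 to 2.10 CPM. HSPA6 has a close pseudogene copy, HSPA7, and how reads matching both were counted is not given in the sources used here.

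CRYAB (ENSG00000109846.9; hg38 chromosome 11, 111908565 to 111923722) encodes αB-crystallin, a small heat shock protein that keeps unfolded proteins soluble. It had 3.87, 2.37, 3.84 and 2.06 CPM with MG132, from 104, 60, 147 and 61 counts. With bortezomib it had 0.237, 0.136, 0.0740 and 0.148 CPM, from 7, 4, 2 and 4 counts. The groups were far apart, but the bortezomib level rests on 17 counts in all. Its log2 fold change was 4.31 (SE 0.569, 95% interval 3.08 to 5.53; adjusted p = 0.0132, edgeR). No count fell on CRYAB in the 4 G2 libraries, and 0 to 7 counts did with MG132 and α-amanitin. The annotated span of CRYAB overlaps HSPB2 on the other strand, and whether counting used strand is not given in the sources used here.

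SERPINH1 (ENSG00000149257.15; hg38 chromosome 11, 75562056 to 75572783) encodes HSP47, the collagen chaperone of the endoplasmic reticulum and a heat shock gene. It had 1206, 708.9, 1070.0 and 1386 CPM with MG132, against 513.3, 429.9, 409.1 and 362.5 CPM with bortezomib. MG132 replicate 2 was the lowest of its group and still above every bortezomib library. SERPINH1 had a log2 fold change of 1.35 (SE 0.223; edgeR adjusted p = 0.0217). G2 cells had 142.2 to 211.7 CPM.

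ZFAND2A (ENSG00000178381.12; hg38 chromosome 7, 1152071 to 1160759) encodes AIRAP, an arsenite-inducible zinc finger protein that associates with the proteasome. It had 299.2, 411.7, 281.4 and 351.9 CPM with MG132, against 112.8, 110.2, 81.2 and 62.9 CPM with bortezomib. The lowest MG132 library lay well above the highest bortezomib library. Its log2 fold change was 1.87 (SE 0.278; edgeR adjusted p = 0.01). G2 cells had 11.3 to 18.2 CPM, below every library of both inhibitors.

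DUSP1 (ENSG00000120129.6; hg38 chromosome 5, 172768090 to 172771195) encodes the nuclear phosphatase that inactivates the MAP kinases p38, JNK and ERK. It had 54.3, 88.5, 56.8 and 66.2 CPM with MG132, against 20.3, 13.9, 18.6 and 17.4 CPM with bortezomib. The log2 fold change was 1.92 (SE 0.276; edgeR adjusted p = 0.00947). G2 cells had 9.54 to 14.8 CPM, a range that touched the lowest bortezomib library.

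NR4A1 (ENSG00000123358.20; hg38 chromosome 12, 52022832 to 52059507) encodes NUR77, an orphan nuclear receptor induced within minutes by many stimuli. It had 38.8, 26.1, 38.7 and 52.8 CPM with MG132, against 16.6, 16.9, 17.6 and 13.9 CPM with bortezomib. The log2 fold change was 1.27 (SE 0.226; edgeR adjusted p = 0.047). The bortezomib libraries lay close to the G2 libraries, which had 16.1 to 18.6 CPM.

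**Figure D2:**
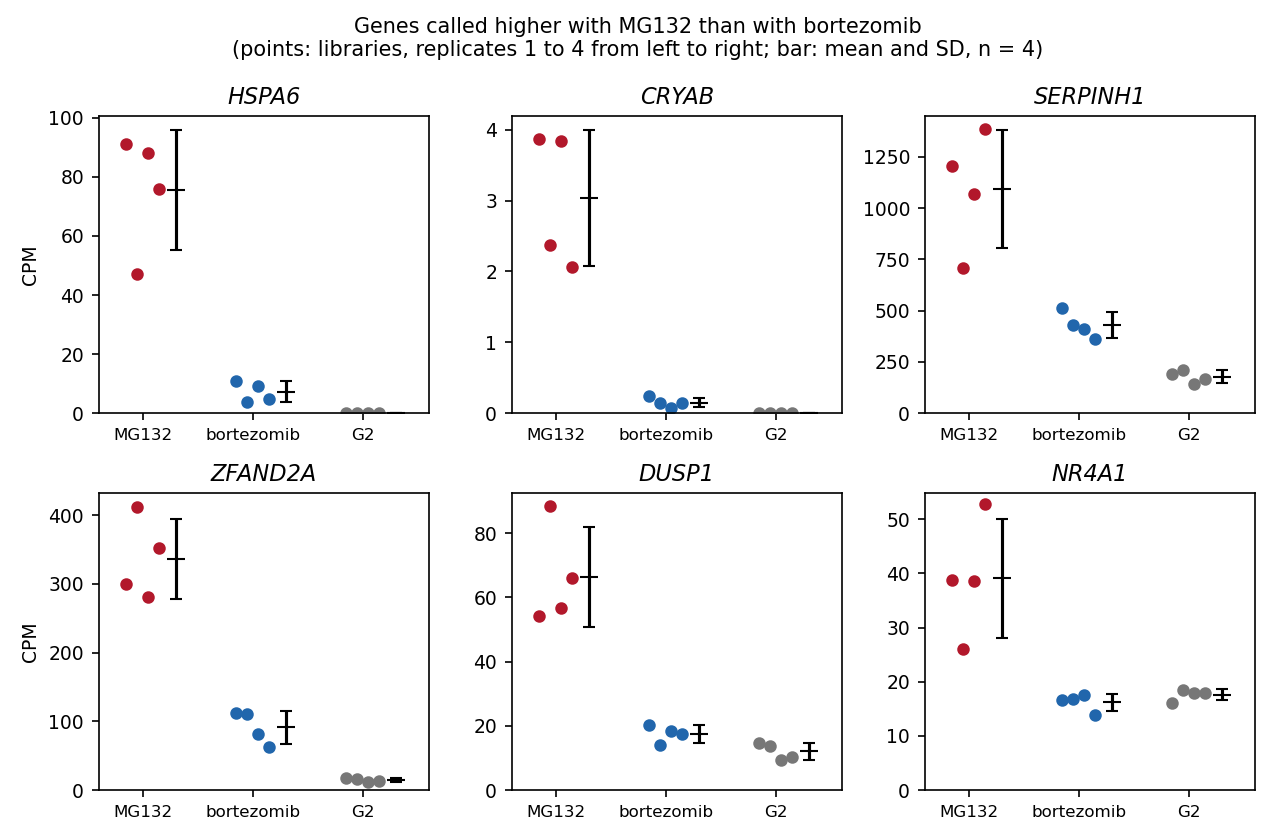
Levels (CPM, linear axes from 0) of 6 called genes in the 4 MG132 libraries (red), the 4 bortezomib libraries (blue) and the 4 G2 libraries (grey, collected at 0 h of drug), with the mean and SD. In each panel all MG132 points lie above all bortezomib points; NR4A1 has bortezomib and G2 points at about the same level, between 13.9 and 18.6 CPM.

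These 7 genes were higher with MG132 in every alternative tried, but how many were called depended on the libraries. Without bortezomib replicate 3 or without bortezomib replicate 4, HSPA6 was the 1 gene called. Without MG132 replicate 4, 4 genes were called, and without bortezomib replicate 1 or 2, 3 genes. Without MG132 replicates 2 and 4 together, HSPA6, CRYAB and SERPINH1 were called. With the 8 compared libraries fitted alone, HSPA6, CRYAB and DUSP1 were called, and the edgeR adjusted p of HSPA6 was 0.0463. Over the 21 alternatives with a test, HSPA6 was called in 20, ZFAND2A in 16, CRYAB and DUSP1 in 15 each, SERPINH1 in 9 and NR4A1 in 6. Of the 8 fits that each left out 1 library, SERPINH1 and NR4A1 were called in 1, the fit without MG132 replicate 2. The labels carry an undocumented code letter, and O is the 1 letter that both groups share. Within it, as differences of mean log2(CPM + 0.5) between MG132 replicates 3 and 4 and bortezomib replicate 1, which understates genes of low level, HSPA6 differed by 2.84, CRYAB by 2.18, DUSP1 by 1.57, ZFAND2A by 1.48, NR4A1 by 1.42 and SERPINH1 by 1.25. With the letter as a block, 0 genes were called by edgeR, with 327 genes at an unadjusted p under 0.05, and the log2 fold change of HSPA6 was 2.87 (adjusted p = 0.349). Letters P and W are carried only by bortezomib replicates 2 and 4, so the block leaves these libraries without weight in the comparison. A letter effect on the calls therefore cannot be told apart from the loss of these libraries.

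**Figure D3:**
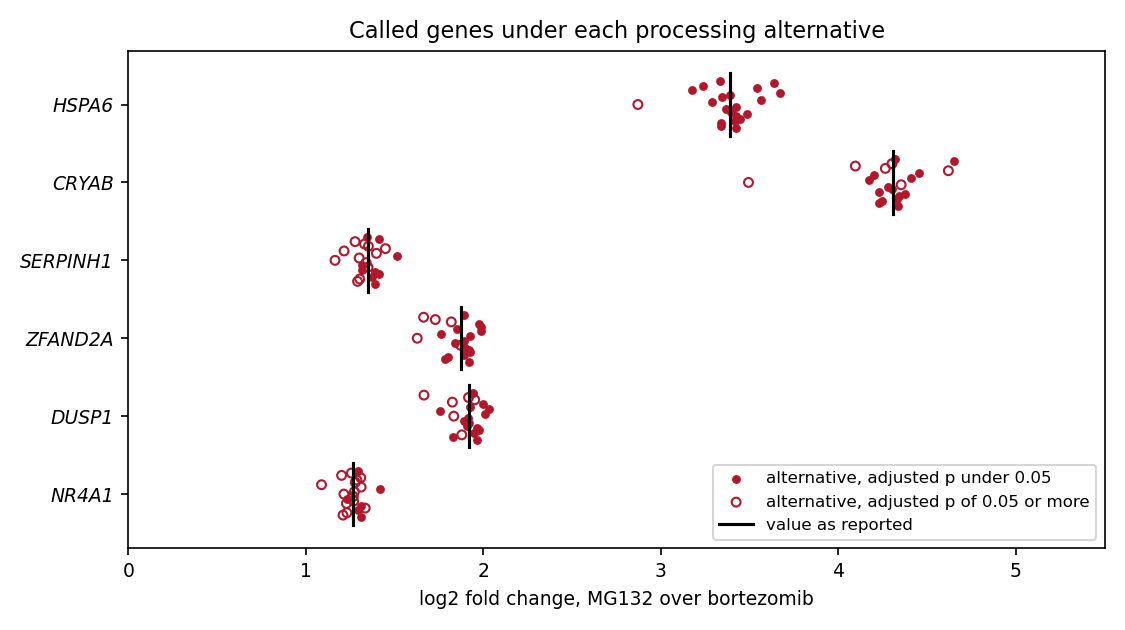
Log2 fold change, MG132 over bortezomib, of 6 called genes under each processing alternative with a test (points, filled where the adjusted p was under 0.05) and as reported (black bars). No point lies at or below 0, and HSPA6 is the gene called most often, in 20 of 21 alternatives, while NR4A1 is called in 6.

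Of the 13 tested HSP70 and HSP110 genes, HSPA6 was the 1 called, and 3 had all MG132 libraries above all bortezomib libraries. Among all genes tested, 0.0369% were called and 1.74% had this order. The median log2 fold change of the list was 0.18, against -0.01 over all genes tested. HSPA1B, a stress-inducible HSP70, had 4094, 3618, 4094 and 5779 CPM with MG132, against 2925, 2098, 2158 and 1825 CPM with bortezomib and 309.7 to 448.5 CPM in G2 cells. The groups did not overlap, and the difference did not pass (log2 fold change 0.97, 95% interval 0.39 to 1.54; edgeR adjusted p = 0.779). Its near-identical copy HSPA1A had 576.3, 194.6, 437.0 and 638.5 CPM with MG132, against 123.7, 168.2, 177.7 and 145.2 CPM with bortezomib (log2 fold change 1.59, edgeR adjusted p = 0.395). The groups of HSPA1A were separate as well, and it passed with DESeq2 (adjusted p = 0.0169). Reads shared by these copies make each of them uncertain. HSPA8, the constitutive HSP70, had 6769, 14730.0, 8123 and 8690.0 CPM with MG132, against 7282, 5509, 6370.0 and 5277 CPM with bortezomib. Here the groups overlapped, since MG132 replicate 1 lay below bortezomib replicate 1.

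The other heat shock lists held no called gene beyond those named. Of 11 genes for small heat shock proteins and SERPINH1, 4 had enough counts to be tested, and 2 were called, against 0.0369% of all genes tested. HSPB1, which encodes HSP27, had 601.4, 479.4, 539.0 and 805.0 CPM with MG132, against 279.3, 340.8, 250 and 252.5 CPM with bortezomib. The groups were separate, and the difference did not pass (log2 fold change 1.11, edgeR adjusted p = 0.395). It passed with DESeq2 (adjusted p = 0.022) and in edgeR once GC content and length entered as an offset (adjusted p = 0.0323).

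Of 24 HSP40 and BAG co-chaperone genes 0 were called, and their median log2 fold change was 0.10. Of these, 2 had all MG132 libraries above all bortezomib libraries, DNAJB1 and BAG3. Among all genes tested, 0.0369% were called and 1.74% had this order. DNAJB1, which encodes the HSP40 that loads clients onto HSP70, had 1685, 1135, 1783 and 2315 CPM with MG132, against 964.5, 809.0, 883.7 and 810.9 CPM with bortezomib (log2 fold change 1.00, edgeR adjusted p = 0.387). BAG3, the co-chaperone that directs clients to autophagy, had 546.4, 509.6, 451.9 and 642.0 CPM with MG132, against 302.0, 329.3, 236.3 and 301.6 CPM with bortezomib (log2 fold change 0.88, 95% interval 0.50 to 1.26; edgeR adjusted p = 0.172). DESeq2 called both of these genes. G2 cells had 237.8 to 323.5 CPM of DNAJB1 and 80.9 to 96.2 CPM of BAG3.

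Of 13 genes of the HSP90 machine and the heat shock factors 0 were called (median 0.17), and of 10 chaperonin genes 0 (median 0.17). These counts of 0 lie near the share called over all genes tested, 0.0369%. HSP90AA1, the inducible HSP90, had 4214, 6078, 3947 and 596.8 CPM with MG132, against 3387, 2467, 3166 and 3384 CPM with bortezomib. HSPH1, which encodes the exchange factor HSP110, had 1331, 1609, 1362 and 198.0 CPM with MG132, against 1132, 906.5, 822.0 and 886.7 CPM with bortezomib. In both genes MG132 replicate 4 lay far below the other 7 libraries, and the GC slope of that library was 0.60, the steepest of the 8. A fit with GC content and length as an offset was among the 21 alternatives with a test. Over these, the log2 fold change was -0.14 to 0.61 for HSP90AA1 and -0.09 to 0.62 for HSPH1. The part of the skew in the values of MG132 replicate 4 was not tested. Without MG132 replicate 4, the log2 fold change was 0.61 for HSP90AA1 and 0.62 for HSPH1, against 0.26 for each with it.

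**Figure D4:**
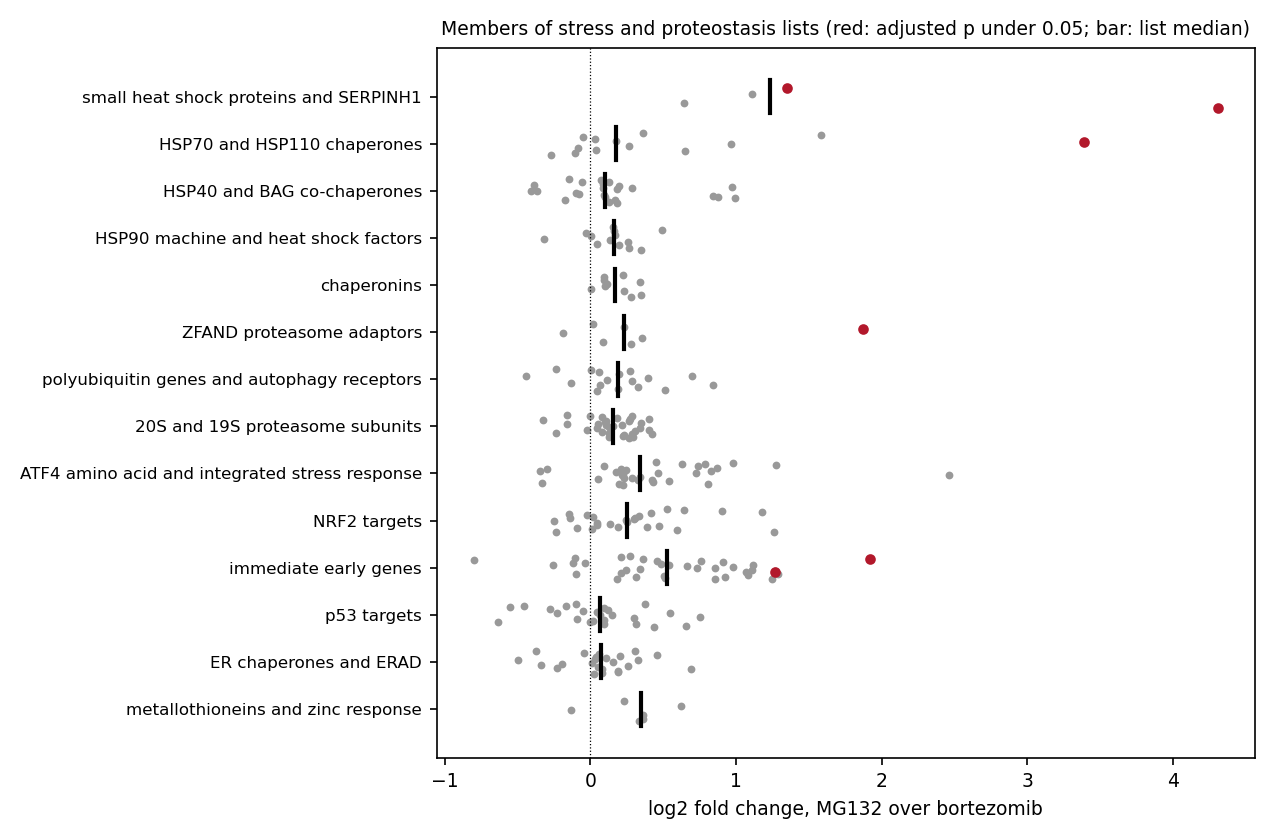
Each point is a tested member of a list of stress or proteostasis genes, placed by its log2 fold change, MG132 over bortezomib; red points have an adjusted p under 0.05 and black bars are list medians. The medians lie between 0.07 and 0.53 except for the small heat shock proteins with SERPINH1, at 1.23 over 4 tested genes.

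No gene of the proteasome itself was called. Of the 33 genes for subunits of the core particle and its cap, 0 were called, 0 had separate groups, and 0 had an unadjusted p under 0.05. Over all genes tested, 0.0369% were called, and 1.74% and 1.42% had MG132 wholly above or below bortezomib. Counts of 0 called and 0 separate in a list of this size lie near these shares. Their log2 fold changes were between -0.33 and 0.43 with a median of 0.15. PSMA3, an α-ring subunit, had 122.5, 264.9, 156.6 and 56.1 CPM with MG132, against 141.4, 102.1, 157.0 and 128.5 CPM with bortezomib. The MG132 libraries spanned the bortezomib libraries on both sides (log2 fold change 0.18, 95% interval -0.59 to 0.95). PSMD12, a subunit of the lid, had 282.1, 355.7, 321.6 and 74.3 CPM with MG132, against 326.4, 267.2, 330.7 and 294.8 CPM with bortezomib, and again MG132 replicate 4 was the lowest. Among 18 genes for activators, assembly factors and immunosubunits 0 were called (median 0.06).

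Ubiquitin genes supply the tag that the proteasome reads. Of 17 polyubiquitin and autophagy receptor genes 0 were called (median 0.19), and 2 had all MG132 libraries above all bortezomib libraries. Among all genes tested these shares were 0.0369% and 1.74%. UBB, a polyubiquitin gene, had 1067, 1513, 1174 and 1560.0 CPM with MG132, against 868.3, 842.2, 874.7 and 686.6 CPM with bortezomib. SQSTM1, which encodes the autophagy receptor p62, overlapped between the groups, at 478.8, 304.4, 564.9 and 791.7 CPM with MG132 and 479.9, 408.0, 432.4 and 387.2 CPM with bortezomib. Of 7 genes of the ZFAND family ZFAND2A was the 1 called, and the median of the family was 0.23.

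Immediate early genes are transcribed within minutes of a signal, without new protein synthesis. Of 36 tested, 2 were called, DUSP1 and NR4A1. All MG132 libraries lay above all bortezomib libraries in 13 genes, and below them in 1, against 1.74% and 1.42% of all genes tested. The median log2 fold change was 0.53, against -0.01 over all genes tested. FOS, a subunit of the factor AP-1, had 23.6, 28.9, 29.5 and 38.7 CPM with MG132, against 11.6, 14.7, 11.8 and 12.7 CPM with bortezomib (log2 fold change 1.25, edgeR adjusted p = 0.794). JUN, its partner, had 166.7, 66.9, 193.4 and 235.2 CPM with MG132, against 75.6, 50.1, 70.0 and 79.3 CPM with bortezomib. The groups of JUN overlapped through MG132 replicate 2. G2 cells had 5.38 to 8.23 CPM of JUN, below every library of both inhibitors.

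Further phosphatase genes of this list also had separate groups. DUSP5, an ERK phosphatase, had 145.6, 211.6, 153.1 and 225.3 CPM with MG132, against 78.5, 97.8, 90.7 and 84.4 CPM with bortezomib and 108.8 to 183.1 CPM in G2 cells. The bortezomib libraries were thus the lowest of the 3 groups (log2 fold change 1.07, edgeR adjusted p = 0.253). DUSP2 had 25.0, 21.3, 27.0 and 32.8 CPM with MG132, against 13.8, 13.1, 15.9 and 13.1 CPM with bortezomib. Both passed with DESeq2, DUSP5 at an adjusted p of 0.00579 and DUSP2 at 0.017. KLF2, a zinc finger factor of quiescent cells, was the gene of the list with all MG132 libraries below all bortezomib libraries. It had 2.86, 2.37, 3.19 and 3.92 CPM with MG132 and 4.97, 4.33, 4.66 and 7.55 CPM with bortezomib (log2 fold change -0.80, edgeR adjusted p = 0.88). It was named after its values were seen. EGR1 had 15.3, 9.53, 12.2 and 16.5 CPM with MG132 and 5.82, 8.01, 3.77 and 7.63 CPM with bortezomib, while G2 cells had 4.76 to 15.8 CPM.

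ATF4 drives genes of amino acid synthesis and stress when translation initiation is limited. Of 31 tested genes of this response 0 were called by edgeR, and 7 had all MG132 libraries above all bortezomib libraries. Over all genes tested, 0.0369% were called and 1.74% had this order. The median log2 fold change of the 31 genes was 0.34. FGF21, a secreted stress hormone, had 34, 31, 43 and 44 counts with MG132, against 13, 5, 6 and 2 counts with bortezomib, and 0 counts in each G2 library. The log2 fold change was 2.46 (SE 0.446, 95% interval 1.5 to 3.42) and did not pass with edgeR (adjusted p = 0.168), while it passed with DESeq2 (adjusted p = 0.000923) and limma-voom (adjusted p = 0.00191). ATF3, a stress-induced repressor, had 241.8, 214.7, 284.3 and 359.2 CPM with MG132, against 149.5, 98.0, 114.6 and 91.9 CPM with bortezomib (log2 fold change 1.28, edgeR adjusted p = 0.588). CHAC1, which encodes a glutathione-degrading enzyme, had 83.4, 73.4, 84.1 and 114.0 CPM with MG132, against 47.2, 50.2, 45.2 and 37.4 CPM with bortezomib, and 1.60 to 2.90 CPM in G2 cells. In ATF3 and CHAC1 both inhibitor groups stood above the G2 range, which was 11.0 to 20.5 CPM for ATF3, and the inhibitor groups did not overlap.

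Not all ATF4 genes separated the groups. DDIT3, which encodes the pro-apoptotic factor CHOP, had 46.8, 68.7, 62.5 and 56.3 CPM with MG132, against 51.7, 52.9, 33.6 and 22.8 CPM with bortezomib. ASNS, asparagine synthetase, had 60.4, 91.4, 61.1 and 69.6 CPM with MG132, against 68.4, 50.7, 46.9 and 44.9 CPM with bortezomib. The groups overlapped in both genes, with 95% intervals of the log2 fold change of -0.19 to 1.27 for DDIT3 and 0.02 to 0.82 for ASNS.

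Of 26 NRF2 target genes 0 were called (median 0.25), and 3 had all MG132 libraries above all bortezomib libraries. Over all genes tested, 0.0369% were called and 1.74% had this order. HMOX1, heme oxygenase 1, had 291.3, 232.1, 625.1 and 600.5 CPM with MG132, against 149.4, 168.3, 197.2 and 213.2 CPM with bortezomib and 17.5 to 42.0 CPM in G2 cells. The MG132 libraries fell into a lower and a higher pair, both above the bortezomib libraries (log2 fold change 1.26, edgeR adjusted p = 0.617). OSGIN1, an oxidative stress-induced growth inhibitor, had 132.1, 69.1, 151.0 and 178.6 CPM with MG132, against 76.7, 59.4, 83.2 and 64.4 CPM with bortezomib. Its groups overlapped through MG132 replicate 2, and without that library it was called (log2 fold change 1.12, edgeR adjusted p = 0.0321).

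Of 25 p53 target genes 0 were called, 0 had separate groups, and the median was 0.07. The counts of 0 lie near the shares over all genes tested, 0.0369% called and 1.74% and 1.42% separate. CDKN1A, which encodes the cell cycle inhibitor p21, had 271.3, 294.4, 294.5 and 523.6 CPM with MG132, against 282.6, 395.4, 222.3 and 210.2 CPM with bortezomib and 96.8 to 156.2 CPM in G2 cells. MDM2, the ubiquitin ligase of p53, had 337.6, 312.9, 320.5 and 53.7 CPM with MG132, against 436.2, 432.8, 329.5 and 392.1 CPM with bortezomib. MG132 replicate 4 was the highest library for CDKN1A and the lowest for MDM2. Without it the log2 fold change of MDM2 was -0.30 and that of CDKN1A 0.05, against -0.63 and 0.32 with it.

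Against 0.0369% of all genes tested, 0 of 24 tested genes for chaperones and degradation of the endoplasmic reticulum were called (median 0.07). HSPA5, the HSP70 of this compartment, had 797.8, 692.1, 684.8 and 531.5 CPM with MG132, against 709.7, 587.4, 651.3 and 609.2 CPM with bortezomib, a log2 fold change of 0.08 with a 95% interval of -0.28 to 0.45. This is among the narrower intervals here: over 10116 genes whose mean log2 CPM was 3 or more, the median half-width of the 95% interval was 0.52 log2 units. Of 30 genes of G2 and mitosis 0 were called, 0 had separate groups, and the median was 0.13. Here too the counts of 0 lie near the shares over all genes tested (0.0369% called, 1.74% and 1.42% separate). CCNB1, which encodes cyclin B1, had 390.3, 742.8, 463.0 and 557.3 CPM with MG132 and 503.0, 447.3, 533.6 and 359.0 CPM with bortezomib, so the groups overlapped at matched time after release.

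Of the remaining lists, which also held 0 called genes (0.0369% of all genes tested were called), some leaned to one side. All 76 cytosolic ribosomal protein genes had positive log2 fold changes (median 0.43). All MG132 libraries lay above all bortezomib libraries in 3 of them, against 1.74% of all genes tested. RPLP0, which encodes a protein of the ribosomal stalk, had 2407, 4198, 2789 and 3691 CPM with MG132, against 2220.0, 2179, 2355 and 1866 CPM with bortezomib. The highest levels were in MG132 replicates 2 and 4, the libraries whose GC slopes stood apart. Summed over the list, these 2 libraries were again the highest, and MG132 replicate 1, at 49240.0 CPM, lay below 3 of the 4 bortezomib libraries. Without MG132 replicates 2 and 4 the median of the list was 0.14, with 74 genes positive, against 0.00 over all genes tested.

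All 14 tested RNA polymerase III transcripts were positive as well (median 0.56). In 3 of them all MG132 libraries lay above all bortezomib libraries, against 1.74% of all genes tested. RN7SK, the RNA that holds the elongation factor P-TEFb inactive, had 13160.0, 27290.0, 14010.0 and 20860.0 CPM with MG132, against 11420.0, 11750.0, 12000.0 and 10470.0 CPM with bortezomib. RN7SL1, the RNA of the signal recognition particle, had 18610.0, 14270.0, 16620.0 and 30360.0 CPM with MG132, against 11860.0, 13370.0, 15810.0 and 10440.0 CPM with bortezomib. MG132 replicates 2 and 4 were the highest libraries for RN7SK, and replicate 4 for RN7SL1. Without both, the median of the list was 0.24, with 11 of 14 transcripts positive. With GC content and length as an offset, the median was 0.52 for the ribosomal protein genes, with 76 positive. It was 0.60 for the RNA polymerase III transcripts, with 14 positive, and 0.09 over all genes tested. How much of the difference between these settings comes from the GC skew was not tested.

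Of 24 sterol synthesis genes 22 were positive (median 0.45) and 0 had separate groups. Among all genes tested, MG132 lay wholly above bortezomib in 1.74% and wholly below in 1.42%. The median of the sterol genes was 0.15 without MG132 replicates 2 and 4, and 0.90 without bortezomib replicate 2. INSIG1, which retains the sterol sensor in the endoplasmic reticulum, had 165.0, 412.8, 100.5 and 139.4 CPM with MG132, against 38.4, 211.3, 34.8 and 28.3 CPM with bortezomib, the group being split by bortezomib replicate 2. Of 14 regulatory lncRNA rows 12 were negative (median -0.47, and -0.27 without MG132 replicates 2 and 4). In 2 of them all MG132 libraries lay below all bortezomib libraries, against 1.42% of all genes tested. NEAT1, the scaffold of paraspeckles, had 158.8, 123.6, 114.0 and 63.7 CPM with MG132, against 302.3, 246.0, 125.2 and 161.9 CPM with bortezomib.

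Repeat subfamilies, such as Alu and L1 elements, are counted here as 1 row over all their copies. None of 1076 was called (0% called; smallest adjusted p = 0.223 by edgeR), and 121 had an unadjusted p under 0.05, of which 118 were lower with MG132. DESeq2 and limma-voom called 0 as well. Of the 1076, 1044 had a negative log2 fold change, with a median of -0.69. All MG132 libraries were below all bortezomib libraries in 28 (2.6%) and above in 1 (0.0929%). When repeats were scaled and fitted apart from genes, their median was 0.02. Scaling on repeats alone takes most of them as unchanged and so centres them near 0. That value therefore cannot show whether the lean depends on the scaling. By class the medians were -0.82 for 165 LINE, -0.71 for 546 LTR, -0.60 for 226 DNA and -0.43 for 57 SINE subfamilies.

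LINE elements took 2.54%, 1.38%, 1.66% and 0.913% of all counts with MG132, against 2.84%, 2.55%, 1.93% and 4.14% with bortezomib. Bortezomib replicate 4 was the highest and MG132 replicate 4 the lowest of the 8, and the groups overlapped. All repeats together took 8.93%, 5.11%, 6.61% and 6.56% with MG132, against 9.3%, 8.78%, 7.16% and 13.1% with bortezomib. Without bortezomib replicate 4 the median log2 fold change of the subfamilies was -0.46, and without MG132 replicates 2 and 4 it was -0.35. MG132 replicates 2 and 4, which had the lowest LINE shares of the 8, are the libraries with the GC slopes of -0.35 and 0.60, and the part of that skew in these values was not tested.

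**Figure D5:**
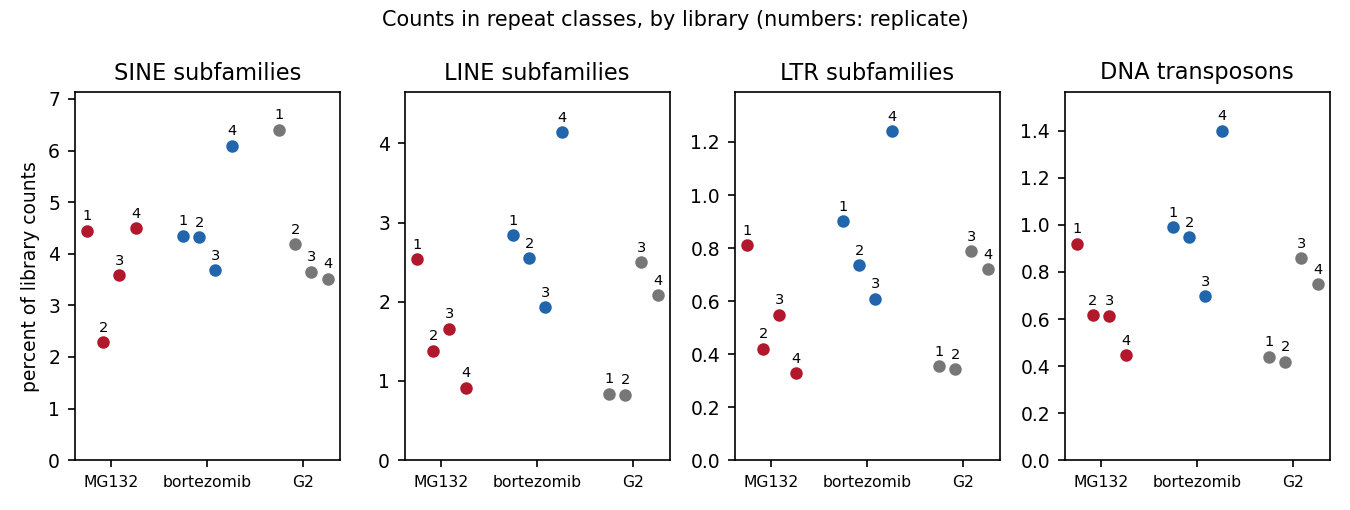
Percent of a library's counts in 4 classes of repeats, for the MG132 (red), bortezomib (blue) and G2 (grey) libraries, with replicate numbers at the points. Bortezomib replicate 4 is the highest of the 8 drug libraries in each class. Bortezomib replicates 1 and 2 also lie above all MG132 libraries for LINE and DNA, and replicate 1 does for LTR. Bortezomib replicate 3 lies within the MG132 range in each class.

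LTR12C, an endogenous retroviral promoter element, had 306.7, 257.2, 324.5 and 247.4 CPM with MG132, against 324.3, 220.9, 236.4 and 243.2 CPM with bortezomib and 131.0 to 178.3 CPM in G2 cells. Both inhibitor groups lay above the G2 range and overlapped each other (log2 fold change 0.15, 95% interval -0.32 to 0.61). LTR12D, a related element, had 15.3, 10.9, 20.1 and 12.4 CPM with MG132, against 40.3, 16.2, 29.7 and 22.8 CPM with bortezomib (log2 fold change -0.89, edgeR adjusted p = 0.223). HERV9-int, the internal part of the same retroviruses, had 7.14, 5.42, 8.15 and 4.66 CPM with MG132, against 20.1, 7.40, 13.7 and 9.48 CPM with bortezomib. In LTR12D and HERV9-int the groups overlapped in a few libraries. L1HS, the youngest L1 subfamily, had 43.5, 22.9, 28.3 and 5.27 CPM with MG132, against 46.3, 34.8, 34.3 and 77.7 CPM with bortezomib. AluY had 799.9, 520.4, 510.4 and 560.7 CPM with MG132, against 704.5, 747.1, 573.5 and 1186 CPM with bortezomib. Its log2 fold change was -0.43. With repeats fitted apart it was 0.42, a value relative to the other repeats and not to genes. Copies of young subfamilies share sequence, and how reads with several alignments were counted is not given in the sources used here.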

How the data were processed

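Ribosome-depleted total RNA was sequenced from TruSeq stranded libraries, per the labels' protocols. In the authors' 1 deposited table, raw read counts without normalisation fill 41092 rows. The submitters' processing notes name FastQC, cutadapt 1.18, STAR and hg38, without roles; the counting tool, annotation release, strand setting and multiple-alignment handling were not given in the sources used here. Symbols were matched for 39900 genes, and positions of 38661 came from GENCODE 29, which may differ from the authors' annotation.

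From these counts, edgeR 4.0.16 in R 4.3.3 fitted genes and repeat subfamilies together (filterByExpr, TMM, robust quasi-likelihood test, all 20 libraries, 1 mean per group, 15 residual degrees of freedom, biological coefficient of variation 33.3%). P-values were adjusted by Benjamini-Hochberg over 18959 genes and separately over 1076 subfamilies, and a feature was called under 0.05. CPM use TMM-adjusted library sizes. Groups are separate where all libraries of one lie beyond all libraries of the other. No replicates were duplicates (chi-square per degree of freedom 20.96 to 453.2 within groups).

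Named genes were called protein-coding genes with separate groups whose mean log2 CPM was 3 or more, each list's up to 4 members of smallest p, and a set of genes (stress, proteasome, cell cycle) and of repeats; the text gives those that carry the comparison, and some are not reported here. Members and lists were chosen with earlier results of these data known. Alternatives were other scalings (RLE, total counts, 13 mitochondrial mRNAs), filters, DESeq2 1.42.0, limma-voom (limma 3.58.1), fits of the 8 libraries alone or of repeats apart, blocks for replicate number and code letter, omission of libraries, and an offset for GC content and length, known for 98.6% of genes.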

Additional observations from a re-analysis of the deposited data

Results flagged for a closer look

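In 5 of 138 groups of 4 values checked, 1 library lay so far from the other 3 that its gap exceeded Dixon's 95% critical value for 4 samples; chance alone passes it in about 1 group in 20. CDKN1A had 523.6 CPM in MG132 replicate 4, against 271.3 to 294.5 CPM in the other MG132 libraries. MDM2 had 53.65 CPM in the same library, against 312.9 to 337.6 CPM. The share of counts in miscellaneous RNAs was 7.05% in MG132 replicate 4, against 3.9% to 4.39%. INSIG1 had 211.3 CPM in bortezomib replicate 2, against 28.32 to 38.4 CPM in the other bortezomib libraries. AluSg, a repeat named after its values were seen, had 7555 CPM in bortezomib replicate 4, against 401 to 474.9 CPM, while the MG132 libraries had 335.5 to 541.4 CPM; without that library its log2 fold change moved to -0.08.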

How the results depend on the processing

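In every alternative the called genes were all higher with MG132, and 0 repeat subfamilies were called. The number of called genes, 7 as reported, was 4 with total library size scaling, 3 with mitochondrial mRNA scaling, 19 with DESeq2, 3 with the 8 libraries alone, 3 without MG132 replicates 2 and 4, and 0 with the code letter block; it was 6 to 9 with the other alternatives that kept all libraries and had no block. Leaving out each library in turn gave 1 to 10. The labels do not say whether the replicate numbers pair the samples. Correlations of same-numbered libraries' deviations were 0.01, -0.033, 0.105 and -0.082, and those of unlike-numbered libraries ran from -0.393 to 0.4. With the replicate block 3 genes were called. The causes were not tested. These 7 genes stayed higher in each. Genes not called as reported changed sign as follows, as log2 fold changes: HSPA5 was 0 with total library size scaling and -0.076 with the letter block; HSPH1 was -0.093, HSP90AA1 -0.141 and PSMA3 -0.008 with limma-voom; HSP90AA1 was -0.089, PSMA3 -0.267 and LTR12C -0.259 with the letter block; leaving out each library gave -0.006 to 0.181 for HSPA5, -0.087 to 0.614 for HSP90AA1, -0.243 to 0.456 for PSMA3 and -0.431 to 0.07 for PSMD12; CCNB1 was -0.109 without MG132 replicates 2 and 4; AluY was 0.417 with repeats fitted apart. Within letter O, HSPH1 was -1.123, HSP90AA1 -1.141, PSMA3 -0.59, ASNS -0.069, HSPA5 -0.234 and LTR12C -0.195. MG132 replicate 4, with a GC slope of 0.6, was the low library for HSPH1, HSP90AA1 and PSMA3 (198, 596.8 and 56.05 CPM). In these genes MG132 replicate 3 lay above bortezomib replicate 1, at 1362 against 1132, 3947 against 3387 and 156.6 against 141.4 CPM. It lay level in LTR12C (324.5 against 324.3 CPM) and below in ASNS (61.11 against 68.43) and HSPA5 (684.8 against 709.7). The AluY value with repeats fitted apart is relative to the other repeats, which that scaling centres near 0. The GC and length offset was not run for repeats. Depth limits CRYAB and FGF21, with 17 and 26 counts over the bortezomib libraries.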
